A study of Homo sapiens with 4 samples.

Results

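The glycolysis and gluconeogenesis genes described here are 30 genes that encode glucose and lactate transporters, the enzymes of both pathways and regulators of their flux. They were chosen by name, not by a measured value, and stand beside 34326 names in all to which the authors assigned peaks as nearest gene. A peak belonged to a gene when the authors' nearest-gene column named it, with G6PC1 also taken under its older symbol G6PC. In cells with the control hairpin, 37 of 52192 peaks in DMSO and 40 of 49783 in rapamycin belonged to the genes. In cells with the hairpin against ARID1A it was 35 of 45700 in DMSO and 37 of 44760 in rapamycin.

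The peaks came from ATAC-seq, which marks DNA open to a transposase, in Huh7 cells, an established line from a human liver carcinoma. Cells carried either a control short hairpin RNA (shControl) or a hairpin against ARID1A (shARID1A), a subunit of the SWI/SNF chromatin remodeller, so that every group carried a hairpin. Both were given DMSO, or were treated for 6 h with 100 nM rapamycin, which blocks the growth-signalling kinase complex mTORC1. With a single library of 50000 cells for each of the 4 groups, there were no replicates to judge a difference by, and the read depth was unknown. The sources used here do not say whether the hairpin cells were a clone or a pool, or how far ARID1A fell. Of 10 hepatocyte markers, 7 or 8 had a peak at a start site in each list, and ALB and FGB had none in any. Peaks stood at 2 or 3 of 5 leukocyte, at 1 or 2 of 4 fibroblast, at 0 of 4 endothelial and at 0 of 5 skeletal muscle markers.

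Glycolysis splits glucose into pyruvate and yields ATP, and gluconeogenesis, which runs mainly in liver and kidney, rebuilds glucose from lactate and other precursors. Several steps have isoforms. Hepatocytes use the transporter SLC2A2 (GLUT2) and the pyruvate kinase PKLR, and release glucose through G6PC1, while most other cells and many tumours use SLC2A1 (GLUT1), HK2, PKM and LDHA. mTORC1 is known to raise glycolytic gene expression in many cell types.

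The DNA just before the start sites of some such isoform pairs is shown, chosen because the pairs differed in whether a peak stood there. Sequences are 200 bases before a start site, 5′ to 3′ on the gene's strand, from RefSeq on GRCh38.p14, with CpG dinucleotides in capitals. SLC2A1 (chromosome 1, 42958869 to 42959068, minus strand), PFKFB4 (chromosome 3, 48556804 to 48557003, minus strand), PKM (chromosome 15, 72231191 to 72231390, minus strand) and LDHA (chromosome 11, 18396151 to 18396350, plus strand) had a peak on this window in all 4 lists. SLC2A2 (chromosome 3, 171026721 to 171026920, minus strand), PFKFB1 (chromosome X, 54998790 to 54998989, minus strand), LDHB (chromosome 12, 21657843 to 21658042, minus strand) and G6PC1 (chromosome 17, 42900599 to 42900798, plus strand) had one in no list. PKLR (chromosome 1, 155300953 to 155301152, minus strand) had one in 1 list.
SLC2A1: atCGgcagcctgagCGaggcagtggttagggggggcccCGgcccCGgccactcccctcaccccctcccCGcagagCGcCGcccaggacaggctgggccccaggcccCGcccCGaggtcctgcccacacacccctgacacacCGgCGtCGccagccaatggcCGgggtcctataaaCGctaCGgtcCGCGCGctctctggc
SLC2A2: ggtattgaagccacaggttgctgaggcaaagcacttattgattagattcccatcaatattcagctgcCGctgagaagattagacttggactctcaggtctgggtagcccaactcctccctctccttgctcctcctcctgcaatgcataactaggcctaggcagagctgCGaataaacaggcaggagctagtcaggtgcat
PFKFB4: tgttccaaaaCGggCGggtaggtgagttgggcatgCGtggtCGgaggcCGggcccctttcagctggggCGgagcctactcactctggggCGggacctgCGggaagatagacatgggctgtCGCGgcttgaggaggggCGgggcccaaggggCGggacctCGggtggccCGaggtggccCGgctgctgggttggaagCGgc
PFKFB1: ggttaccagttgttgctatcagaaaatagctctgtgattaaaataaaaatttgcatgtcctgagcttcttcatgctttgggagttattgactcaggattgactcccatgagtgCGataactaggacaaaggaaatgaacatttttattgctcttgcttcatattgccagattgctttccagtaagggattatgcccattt
PKM: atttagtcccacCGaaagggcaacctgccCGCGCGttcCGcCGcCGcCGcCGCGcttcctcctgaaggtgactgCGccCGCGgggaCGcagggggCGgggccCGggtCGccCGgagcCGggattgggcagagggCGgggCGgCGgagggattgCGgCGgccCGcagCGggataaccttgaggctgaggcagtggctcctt
PKLR: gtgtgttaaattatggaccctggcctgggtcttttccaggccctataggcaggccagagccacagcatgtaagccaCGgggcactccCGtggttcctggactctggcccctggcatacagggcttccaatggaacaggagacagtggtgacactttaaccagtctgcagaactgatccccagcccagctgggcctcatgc
LDHA: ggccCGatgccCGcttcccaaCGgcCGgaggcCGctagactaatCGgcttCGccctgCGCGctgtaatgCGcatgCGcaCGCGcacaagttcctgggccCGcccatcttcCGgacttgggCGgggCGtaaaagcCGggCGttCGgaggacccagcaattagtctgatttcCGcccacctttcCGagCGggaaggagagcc
LDHB: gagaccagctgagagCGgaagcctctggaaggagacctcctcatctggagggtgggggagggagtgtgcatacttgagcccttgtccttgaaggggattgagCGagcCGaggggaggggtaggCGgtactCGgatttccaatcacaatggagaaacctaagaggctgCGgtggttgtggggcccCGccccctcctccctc
G6PC1: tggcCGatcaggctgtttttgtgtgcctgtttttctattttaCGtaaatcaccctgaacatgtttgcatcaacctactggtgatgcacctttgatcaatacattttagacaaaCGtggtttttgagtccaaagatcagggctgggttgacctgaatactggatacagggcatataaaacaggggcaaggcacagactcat
These windows held 18 CpG in SLC2A1 against 2 in SLC2A2, 16 in PFKFB4 against 1 in PFKFB1, 26 in PKM against 2 in PKLR and 23 in LDHA against 7 in LDHB, and that of G6PC1 held 3. PFKM and PFKP, not shown, also differed in peaks but lacked this contrast. In the longer windows counted below, those of PFKM with a peak in all lists held 19, 20, 25 and 26 CpG. Those of PFKP, all without a peak, held 28, 25, 37 and 10. The contrast in the pairs shown thus does not stand for all isoform pairs.

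Most of the genes had an open start site in every list. A start-site peak, centred within 1 kb of a start site of the gene whatever name it carried, was present for 21 of the 29 genes with a known start site in shControl cells in DMSO, for 22 of them in rapamycin, and in shARID1A cells for 23 in DMSO and 22 in rapamycin. It was present in all 4 lists for 21 genes and in no list for 6, namely PFKP, PFKFB1, LDHB, SLC2A2, SLC2A3 and G6PC1. HK1 and PKLR had one in some lists only. PCK1 was not scored by position, since the sources used gave no start site for it. No share over all genes was counted in this way, so whether 21 of 29 is usual was not tested. A related count used the windows before RefSeq start sites that are described below with CpG content. A peak stood on 43.6% of these genes' windows in all lists, against 41.6% of all windows. In no list it was 43.6% against 51.0%.

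By the nearest-gene name alone, promoter peaks (within 1 kb by the authors' distance) belonged to 17, 19, 18 and 19 of 30 genes, with shControl cells given before shARID1A cells and DMSO before rapamycin within each. Sets of 4 values keep this order below. Of all gene names with any peak in each list, 45.1%, 45.8%, 48.4% and 47.3% had one. On that base, which leaves out genes without a named peak, the counts here were 17 of 23, 19 of 24, 18 of 24 and 19 of 23. The named promoter peak came and went between lists for 7 genes: HK2, PFKM, ALDOA, GAPDH, PKM, PKLR and SLC2A1. For 6 of them, all but PKLR, a start-site peak was present in every list, and what changed was the gene or the start site to which the authors' column tied it. The SLC2A1 region, for example, carried the name of its antisense neighbour SLC2A1-AS1 in shControl rapamycin. Such changes were common across the genome: with knockdown, 17.2% of gene names lost and 17.3% gained a promoter peak in DMSO, and 17.6% and 16.6% in rapamycin. With rapamycin the shares were 17.1% and 16.6% in shControl cells, and 17.5% and 15.9% in shARID1A cells. For this reason the start-site peaks, and not the names, are described gene by gene.

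Strength is given as the rank of a peak within its own list by the authors' score, in percent of the list length, where 0 is the strongest and 100 the weakest. The median rank of the named promoter peaks of these genes was 19.0%, 17.0%, 16.6% and 14.3%, against 19.2%, 18.9%, 19.1% and 19.3% over all promoter peaks. Their distal peaks, farther than 1 kb from the start site to which the authors measured, had median ranks of 56.8%, 60.5%, 58.5% and 61.3%, against 58.6%, 59.2%, 60.0% and 60.4% over all distal peaks. In strength the peaks of these genes were thus close to those of other genes. Some peaks counted as distal lay at another start site of the gene: LDHA in all lists but shControl rapamycin, PKM in shARID1A DMSO, and SLC16A3. They stay distal in the counts of peaks by name below.

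**Figure D1:**
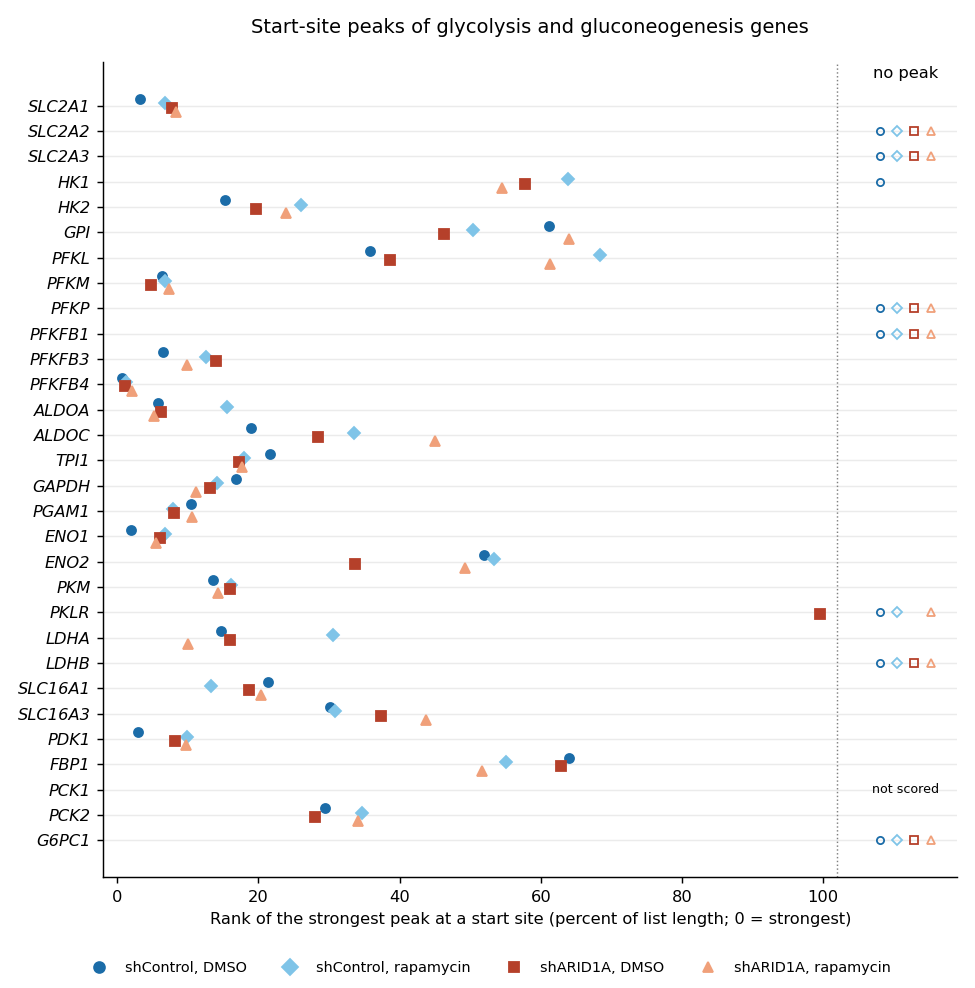
Rank of the strongest start-site peak of each of the 30 genes in the 4 lists, in percent of list length with 0 as the strongest; open symbols at the right mark lists without a peak, and PCK1 was not scored. PFKFB4 lies at the strong end in every list, from 0.646% to 2.09%, and 6 genes have no start-site peak in any list.

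Of the 3 glucose transporters in the set, SLC2A1 alone had a start-site peak. SLC2A1, the widely expressed basal transporter, ranked at 3.27%, 6.81%, 7.71% and 8.26%, so it was among the stronger peaks of each list and strongest in shControl DMSO. SLC2A2, the low-affinity transporter of hepatocytes, and SLC2A3, a high-affinity transporter best known from neurons, had none in any list. For the lactate transporters, SLC16A1 ranked at 21.4%, 13.3%, 18.6% and 20.4%, and SLC16A3, the exporter of glycolytic cells, at 30.1%, 30.9%, 37.4% and 43.7%. The SLC16A3 peak (chromosome 17, 82230696 to 82232288) carried the gene's name but lay more than 1 kb from the start sites to which the authors measured, which differed between lists, so by name it counted as distal.

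HK2, the hexokinase typical of tumours, ranked at 15.3%, 26.0%, 19.7% and 23.9% at its start site. In shControl rapamycin this region was listed as 2 peaks, and the value is that of the stronger. HK1, the hexokinase of most tissues, was absent from shControl DMSO and lay at 63.8%, 57.7% and 54.5% in the other lists, weaker than HK2 in each. The main HK1 start-site region (chromosome 10, 69318502 to 69319257) ranked at 92.8% in shControl cells in rapamycin, and in shARID1A cells at 57.7% in DMSO and 54.5% in rapamycin. Of all promoter regions, 1.62% showed the pattern of this region, absence from shControl DMSO alone. All 7 regions found at HK1, by position or annotation, were absent from shControl DMSO, as were 26.1% of all regions. Of the 7, 2 were in all the other lists, and none carried HK1 as nearest gene. The shControl DMSO list skips no peak number, so no peak number is missing there. GPI, which turns glucose-6-phosphate into fructose-6-phosphate, ranked at 61.2%, 50.4%, 46.3% and 64.0%, with neither hairpin nor treatment placing it in 1 direction.

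The committed step of glycolysis is run by the phosphofructokinases, whose activity is set by fructose-2,6-bisphosphate from the PFKFB enzymes. PFKM, the muscle subunit, had a strong start-site peak at 6.36%, 6.76%, 4.84% and 7.33%. In both DMSO lists the authors' nearest gene for this peak was the neighbouring gene SENP1, so it is not a peak of PFKM alone. PFKL, the liver subunit, ranked lower, at 35.8%, 68.4%, 38.6% and 61.3%, weaker in both rapamycin lists. PFKP, the platelet subunit, had no start-site peak, although its intron 3 and intron 10 held a peak in every list. PFKFB4 had the strongest start-site peak of the 30 genes in all 4 lists, at 0.646%, 1.29%, 1.05% and 2.09%. PFKFB3, the isoform with the highest kinase over phosphatase activity, ranked at 6.5%, 12.6%, 14.0% and 9.94%. PFKFB1, the liver isoform, had no start-site peak and no named peak in any list.

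The aldolases split fructose-1,6-bisphosphate. ALDOA ranked at 5.7%, 15.6%, 6.26% and 5.14%, the weakest value being that of shControl rapamycin. ALDOC, the brain isoform, ranked at 19.0%, 33.5%, 28.5% and 45.0%, weaker in rapamycin with either hairpin. TPI1, which interconverts the triose phosphates, stayed between 17.3% and 21.7%. GAPDH, the NADH-yielding step, ranked between 11.1% and 16.8%, and PGAM1, the phosphoglycerate mutase, between 7.88% and 10.6%. These 3 genes moved little between lists. The PGAM1 peak was annotated to the promoter of the neighbouring gene RRP12 in every list, although PGAM1 was its nearest gene. ENO1, the widespread enolase, ranked at 1.9%, 6.7%, 6.03% and 5.51%, and ENO2, the neuronal enolase, at 51.9%, 53.4%, 33.7% and 49.2%.

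At the pyruvate step, PKM ranked at 13.5%, 16.1%, 15.9% and 14.3%, nearly level across the 4 lists. PKLR, the liver and red-cell pyruvate kinase, had a start-site peak only in shARID1A DMSO (chromosome 1, 155300936 to 155301225), at 99.5% and so among the weakest peaks of that list. LDHA, which makes lactate from pyruvate, ranked at 14.7%, 30.6%, 15.9% and 9.98%. These are not ranks of a single site. In shControl DMSO the strongest peak lay at the outer start site (chromosome 11, 18394122 to 18394914), and the inner one ranked at 17.0%. In shControl rapamycin 1 peak of 2426 bp covered both sites. In both shARID1A lists the strongest peak lay at the inner site. LDHB, the heart-type subunit, had no start-site peak. PDK1, which shuts pyruvate out of mitochondrial oxidation, ranked at 2.98%, 9.87%, 8.12% and 9.78%, again strongest in shControl DMSO.

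Of the gluconeogenic genes, FBP1, whose enzyme bypasses phosphofructokinase, had a middling start-site peak at 64.0%, 55.1%, 62.9% and 51.6%. PCK2, the mitochondrial phosphoenolpyruvate carboxykinase, ranked at 29.4%, 34.6%, 28.0% and 34.1%. PCK1, its cytosolic counterpart, had no named peak in any list, and the nearest peak to the gene (chromosome 20, 57561110 to 57568121 in RefSeq) lay 28.9, 28.9, 26.1 and 28.8 kb from it. G6PC1, the glucose-6-phosphatase that releases free glucose, had no start-site peak, and its named peaks lay past the gene.

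By name, distal peaks were concentrated at a few genes. SLC2A2 and FBP1 together held 9 of 20, 10 of 20, 7 of 17 and 7 of 18 named distal peaks. Merging peaks that overlapped between lists gave 69838 regions, of which 52 had one of the 30 genes as nearest gene in at least 1 list. Another 22 regions lay at a start site of one of the genes, or were annotated to it, but carried other names. Of the 52, 34 (65.4%) were present in all 4 lists, against 45.2% of all regions. The genes have more promoter regions than average, and by place the shares were 22 of 25 promoter regions (88.0%) against 81.8%, and 12 of 27 distal regions (44.4%) against 34.5%. The measures of place were unlike. Regions of these genes were promoter regions when a peak lay at a start site of the gene, and those of the genome by the authors' distance. The SLC16A3 regions were thus promoter regions here, though the authors' distances placed them farther than 1 kb.

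**Figure D2:**
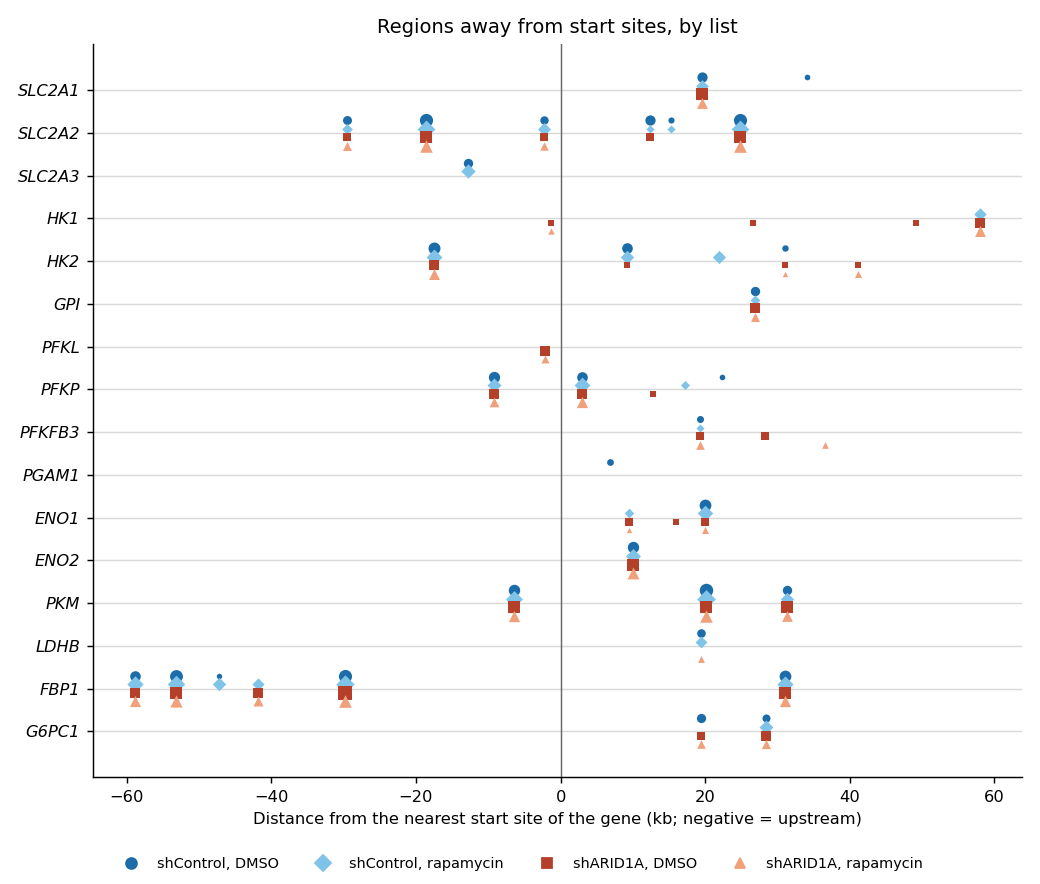
Regions away from start sites, by distance in kb from the nearest start site of the gene (negative is upstream), with 1 symbol for each list that holds the region and larger symbols for stronger ranks. SLC2A2 and FBP1 have rows of regions upstream of the gene, and the 2 shControl lists alone hold the SLC2A3 region.

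SLC2A2 thus had distal peaks without a start-site peak. Its strongest region under its own name (chromosome 3, 171044519 to 171046144, at -18612 bp, where negative is upstream) ranked at 9.28%, 17.4%, 23.8% and 19.3%. A region in its intron 8 (171001165 to 171002649), for which the authors' nearest gene was RNU1-70P, ranked at 10.8%, 19.0%, 15.6% and 17.4%; it was chosen for mention after its values were seen. Neither ranked weaker than 23.8% in any list. The strongest distal region of FBP1 (chromosome 9, 94668812 to 94669967, at -29872 bp) ranked at 10.7%, 13.0%, 11.4% and 17.5%, ahead of the gene's own start site in each list. HK2, which had 6 regions, had its strongest distal one at -17454 bp (chromosome 2, 74816142 to 74817204), with ranks of 28.0%, 38.4%, 58.5% and 42.3%. For PFKP the best rank in any list was that of an intron 3 region (chromosome 10, 3094660 to 3096164), at 37.7%, 55.5%, 46.6% and 58.3%. Its intron 10 region (3107164 to 3107938) ranked at 46.4%, 38.9%, 49.3% and 38.2%, and was the stronger of the pair in both rapamycin lists. For HK1 it was in intron 19 (chromosome 10, 69392340 to 69392939), absent from shControl DMSO and at 68.1%, 58.8% and 42.6% in the others.

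Distal regions that followed the hairpin were few in number, but their shares were not below those of all distal regions. The 2 shControl lists alone held 3 of 27 distal regions (11.1%) with one of the 30 genes as nearest gene, against 6.44% of all distal regions. They were an SLC2A3 region at -12776 bp (chromosome 12, 7948618 to 7949484; 62.3% and 52.2%), an SLC2A2 intron 3 region (chromosome 3, 171011193 to 171011807; 92.6% and 95.4%) and an FBP1 region at -47233 bp (chromosome 9, 94686568 to 94686934; 97.8% and 60.7%). The shARID1A DMSO list skips 2 peak numbers in the interval of the SLC2A3 region, so a number may be missing there; no number is skipped at the others. The 2 shARID1A lists alone held 2 of 27 (7.41%), against 2.08% of all distal regions. One lay at -2152 bp from PFKL, in the last exon of the neighbouring gene AIRE (chromosome 21, 44297591 to 44298212; 58.9% and 77.0%), and the other in intron 7 of HK2 (chromosome 2, 74876185 to 74876522; 92.0% and 85.2%). An intron 1 region annotated to HK1 (chromosome 10, 69332969 to 69333606) had the same pattern, at 94.2% and 90.5%. None of the 27 was held by the 2 DMSO lists alone or by the 2 rapamycin lists alone, against 2.35% and 1.86% of all distal regions.

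Knockdown of ARID1A was compared first in DMSO. No named promoter peak was lost, and the 5 lost peaks were distal and ranked at 62.3% or weaker. Of 37 peaks in shControl DMSO, 5 (13.5%, exact binomial 95% interval 4.54 to 28.8) overlapped no peak of the shARID1A list, against 27.6% of all peaks. Of 35 peaks in shARID1A DMSO, 3 were gained (8.57%, 1.8 to 23.1), against 17.7% of all. Promoter peaks made up 45.9% of the genes' peaks in shControl DMSO and 25.0% of the whole list, so the shares are also given by place. Lost were 0 of 17 promoter peaks (interval up to 19.5%) against 5.82%, and 5 of 20 distal peaks (25.0%, 8.66 to 49.1) against 34.9%. Gained were 1 of 18 promoter peaks (5.56%, 0.141 to 27.3) against 6.56%, the PKLR peak, and 2 of 17 distal peaks (11.8%, 1.46 to 36.4) against 22.1%. Each interval held the share of all peaks; the intervals cover counting error only. The shARID1A lists are shorter than the shControl lists, so the count was repeated on the 30000 top-ranked peaks of each list. Then 1 of 25 peaks was lost against 16.4% of all, and 4 of 27 were gained against 16.5%, so that more were gained than lost.

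The 3 strongest lost peaks were the SLC2A3 peak at 62.3%, a peak past PGAM1 (chromosome 10, 97434355 to 97434968) at 87.7% and the SLC2A2 intron 3 peak at 92.6%. The gained peaks were an FBP1 peak at -42195 bp (chromosome 9, 94681365 to 94682040) at 42.7%, the PFKL peak in AIRE at 58.9% and the PKLR start-site peak at 99.5%. The FBP1 region was also present in both rapamycin lists, at 69.8% in shControl and 55.4% in shARID1A cells.

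With knockdown in rapamycin, the lost peaks lay at HK2, PFKL, PFKP, SLC2A2, SLC2A3, SLC16A3 and FBP1, and again nearly all were distal. Of 40 peaks in shControl rapamycin, 9 (22.5%, 10.8 to 38.5) were lost, against 26.7% of all peaks, and 5 of 37 (13.5%, 4.54 to 28.8) were gained, against 17.9%. By place, 1 of 20 promoter peaks (5.0%, 0.127 to 24.9) was lost against 6.41%, and 8 of 20 distal peaks (40.0%, 19.1 to 63.9) against 33.8%. No promoter peak of 19 was gained (interval up to 17.6%) against 5.41%, and 5 of 18 distal peaks were (27.8%, 9.69 to 53.5) against 23.0%. The share of all peaks lay within each interval here as well. With the 30000 top-ranked peaks of each list, 2 of 28 peaks were lost against 16.8% of all, and 3 of 30 were gained against 16.5%.

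The strongest lost peaks were SLC2A3 (chromosome 12, 7949036 to 7949478) at 52.2%, an HK2 intron 1 peak (chromosome 2, 74844034 to 74844401) at 60.2% and the FBP1 peak of the region at -47233 bp at 60.7%. The region of that HK2 peak was present in shARID1A DMSO at 91.6%, so it was absent only from shARID1A rapamycin. Gained were a peak past G6PC1 (chromosome 17, 42920139 to 42920588) at 70.2%, the PFKL peak in AIRE at 77.0% and the HK2 intron 7 peak at 85.2%. The G6PC1 region was absent from shControl rapamycin only, and ranked at 63.6% and 66.7% in the DMSO lists. The promoter peak lost was the smaller of the 2 PFKL peaks (chromosome 21, 44299700 to 44300015), which was listed only in shControl rapamycin, at 74.1%.

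**Figure D3:**
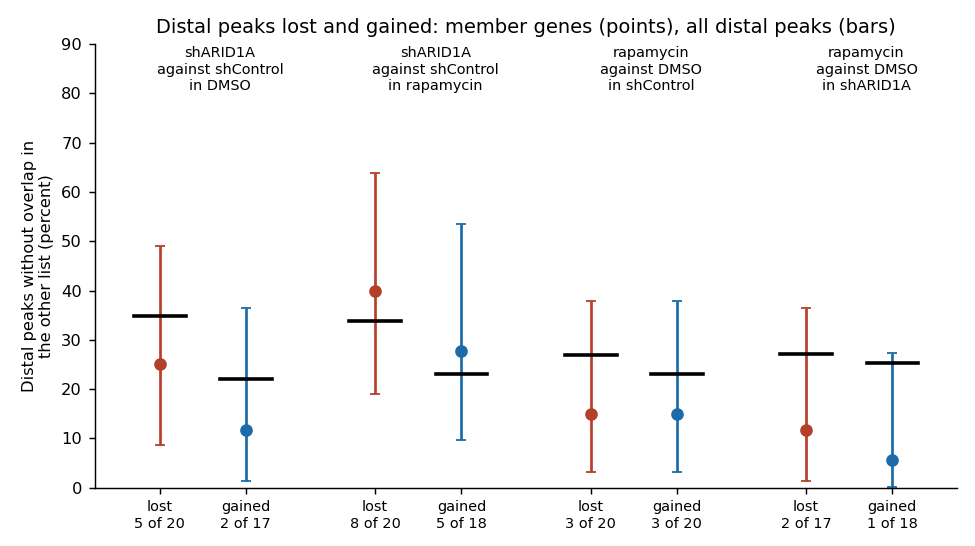
Share of the genes' distal peaks that overlapped no peak of the other list, lost (red) and gained (blue), for the 4 comparisons, in percent, with exact binomial 95% intervals (vertical bars); black bars are the share over all distal peaks. Every black bar lies within the interval of its point, from 2 of 17 to 8 of 20 distal peaks lost and from 1 of 18 to 5 of 18 gained.

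Rapamycin was next set against DMSO in shControl cells, where the peaks that differed lay at G6PC1, PGAM1, PFKP, HK2, FBP1 and PFKL. Of 37 peaks, 3 (8.11%, 1.7 to 21.9) were lost, against 21.7% of all peaks, and 4 of 40 (10.0%, 2.79 to 23.7) were gained, against 18.5%. By place, 0 of 17 promoter peaks were lost (interval up to 19.5%) against 5.81%, and 1 of 20 was gained (5.0%, 0.127 to 24.9) against 5.72%. Distal peaks were lost in 3 of 20 cases (15.0%, 3.21 to 37.9) against 27.0%, and gained in 3 of 20 against 23.0%. The lost peaks were the G6PC1 peak (chromosome 17, 42919693 to 42920609) at 63.6%, the PGAM1 peak at 87.7% and a PFKP intron 18 peak (chromosome 10, 3126786 to 3127088) at 96.7%. The strongest gained were an HK2 intron 2 peak (chromosome 2, 74856419 to 74857619) at 62.0%, the FBP1 peak of the region at -41868 bp at 69.8% and the small PFKL promoter peak at 74.1%. That HK2 peak was in no other list. With the 30000 top-ranked peaks of each list, 2 of 25 were lost against 13.8% of all, and 4 of 28 gained against 14.1%.

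In shARID1A cells the peaks that differed with rapamycin lay at SLC2A2, SLC16A3, PKLR and PFKFB3. Of 35 peaks, 3 (8.57%, 1.8 to 23.1) were lost, against 21.2% of all peaks, and 1 of 37 (2.7%, 0.0684 to 14.2) was gained, against 19.3%. The interval of the gained share did not reach the share of all peaks, but that of the distal gained share did. By place, 1 of 18 promoter peaks was lost (5.56%, 0.141 to 27.3) against 6.5%, and 0 of 19 were gained (interval up to 17.6%) against 4.51%. Distal peaks were lost in 2 of 17 cases (11.8%, 1.46 to 36.4) against 27.1%, and gained in 1 of 18 (5.56%, 0.141 to 27.3) against 25.2%. With the 30000 top-ranked peaks of each list, 1 of 27 peaks was lost against 13.6% of all, and 1 of 30 gained against 13.4%. Lost were an SLC2A2 intron 3 peak (chromosome 3, 171013937 to 171014652) at 66.8%, an SLC16A3 intron 1 peak (chromosome 17, 82229937 to 82230375) at 92.7% and the PKLR start-site peak at 99.5%. The gained peak lay in the last intron of PFKFB3 (chromosome 10, 6239262 to 6239726), at 89.1%. Comparisons that share a list, such as both that use shControl DMSO, are not independent of each other.

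The ranks of named promoter peaks moved in both directions with knockdown. The median difference in rank, where positive is weaker in the first-named group, was -1.13 points over 15 genes in DMSO and -0.88 over 18 genes in rapamycin, against 0.02 and 0.12 over all genes. Single genes ranged from -18.2 (ENO2) to 9.5 (ALDOC) in DMSO and from -26.2 (HK2) to 13.6 (GPI) in rapamycin. With rapamycin it was 2.04 points over 16 genes in shControl cells and 1.34 over 16 genes in shARID1A cells, against 0.08 and 0.20, with ranges of -39.6 (PFKM) to 32.7 (PFKL) and -11.2 (FBP1) to 22.7 (PFKL). For PFKM and HK2 the peak that carried the name differed between these lists, and their strongest start-site peaks differed by 0.4 and -2.1 points. Taken over start-site peaks by position, the medians were 0.6 over 21 genes, -0.9 over 22, 2.5 over 21 and 1.35 over 22, so that the sign for knockdown in DMSO depended on how the peak was tied to the gene. It also turned with the promoter's width, to 1.19 points over 17 genes within 3 kb and 4.29 over 8 genes within 500 bp. By name, 8 of 15 genes ranked stronger with knockdown in DMSO and 12 of 18 in rapamycin, against 49.7% and 48.3% of all genes. With rapamycin 6 of 16 ranked stronger in shControl cells and 5 of 16 in shARID1A cells, against 48.8% and 47.1%.

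A move of at least 10 points in the same direction in both comparisons that share no list was looked for in 42 regions present in all 4 lists. The shares over the genome are of regions present in all 4 lists too. With rapamycin, 2 of 22 promoter regions were weaker in both, against 1.91% of such promoter regions, and none was stronger, against 1.34%. They were ALDOC (chromosome 17, 28576746 to 28577399), weaker by 14.4 points in shControl and 16.5 in shARID1A cells, and PFKL (chromosome 21, 44300339 to 44300896), weaker by 32.7 and 22.7 points. With knockdown, no promoter region of the 22 was weaker or stronger in both, against 2.34% and 2.41%.

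Among distal regions present in all 4 lists, 2 of 20 ranked weaker with knockdown in both comparisons, against 20.7% of all such regions. Stronger in both were 4 of 20, against 4.38%. The 20 and the distal regions of the genome were set apart by unlike measures, as described above. The distal regions named here and those for rapamycin were chosen for mention after their values were seen. None of the 6 carries the gene's name as nearest gene except the PFKFB3 region. PKM held both kinds. Its intron 3 region (chromosome 15, 72210549 to 72211543), the strongest distal region at these genes in both shControl lists, ranked at 4.73%, 7.21%, 18.8% and 19.2%, and was weaker in both shARID1A lists. Its intron 10 region (72199343 to 72200485) ranked at 61.6%, 61.1%, 29.2% and 45.1%, and was stronger in both. A wide region past the end of ENO1 (chromosome 1, 8856988 to 8860414) ranked at 30.9%, 41.7%, 74.2% and 85.9%, weaker in both shARID1A lists and also weaker in rapamycin with either hairpin. It merges several peaks, and these are not ranks of a single site. The strongest peak lay at 8857659 to 8858761 in shControl DMSO and at 8859343 to 8859873 in shARID1A DMSO. In shARID1A rapamycin it lay at 8856988 to 8857608, and these peaks do not overlap one another.

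The other regions that were stronger in both shARID1A lists lay in SLC2A1 intron 2 (chromosome 1, 42938983 to 42939708), at 51.5%, 66.9%, 34.6% and 43.8%, in PFKFB3 intron 10 (chromosome 10, 6221577 to 6222950), at 85.7%, 95.9%, 68.4% and 70.2%, and in GPI intron 9 (chromosome 19, 34391292 to 34392566), at 62.2%, 86.2%, 43.5% and 66.0%. With rapamycin, 3 of 20 distal regions were weaker in both kinds of cells, against 6.39% of all distal regions present in all 4 lists. They were those of ENO1, whose strongest peaks lay at different places, of PFKP intron 3 and of GPI intron 9. The FBP1 region at -58848 bp (chromosome 9, 94698013 to 94698719) was the 1 of 20 that was stronger in both, against 3.54%, at 47.1%, 33.8%, 65.0% and 39.5%. Moves of at least 10 points in opposite directions were shown by 4.67% of all regions present in all 4 lists for knockdown and 5.85% for rapamycin. At these genes they were shown by the GPI start site, the HK2 region at -17454 bp and a G6PC1 region.

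**Figure D4:**
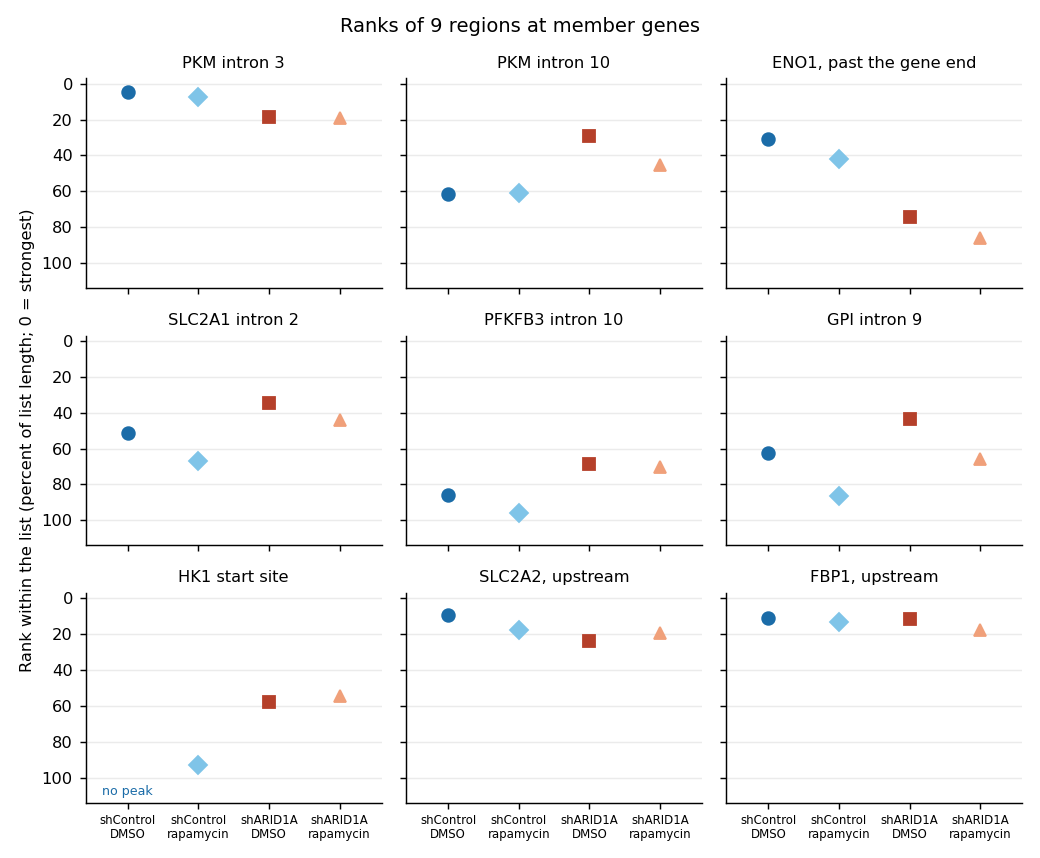
Rank within the list, in percent of list length with 0 at the top as the strongest, of 9 regions in the 4 lists. PKM intron 3 goes from 4.73% and 7.21% in the shControl lists to 18.8% and 19.2% in the shARID1A lists, PKM intron 10 goes the other way, and the HK1 start site has no peak in shControl DMSO.

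Start-site peaks were fewer among liver isoforms than among ubiquitous or tumour isoforms. Of 7 liver isoforms (SLC2A2, PFKL, PFKFB1, PKLR, FBP1, PCK1 and G6PC1), 6 had a known start site, and of these 2, 2, 3 and 2 had a start-site peak, PFKL and FBP1 in every list and PKLR in shARID1A DMSO. Of 15 ubiquitous or tumour isoforms (SLC2A1, SLC2A3, HK1, HK2, PFKM, PFKP, PFKFB3, PFKFB4, ALDOA, ALDOC, ENO1, ENO2, PKM, LDHA and LDHB), 11, 12, 12 and 12 had one. By nearest-gene name, 2, 2, 3 and 2 of the 7 and 9, 10, 8 and 11 of the 15 had a promoter peak; the count by position was chosen for these groups after seeing the data. The liver isoforms held 10, 11, 9 and 10 named distal peaks, and the larger group held 7, 7, 6 and 7. These counts depend on the name that the authors' column gave. Away from start sites, all regions inside HK1, PKM, ENO1 and SLC2A1 carried other names. So did some of the liver isoforms, such as those in SLC2A2 intron 8 and FBP1 intron 3. The counts by name therefore do not show which group has more distal regions. The counts of the larger group include the LDHA and PKM peaks that lay at another start site. The median rank of the named promoter peaks was 49.9%, 68.4%, 62.9% and 56.4% for the liver isoforms and 13.5%, 15.9%, 10.9% and 9.94% for the others. For the liver isoforms it rests on 2, 3, 3 and 2 peaks, of PFKL and FBP1 and, in shARID1A DMSO, the PKLR peak. No test was made of this difference, since the libraries are single and genes are not replicates.

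By position, the count for the liver isoforms differed between lists by PKLR alone, and that for the others by HK1 alone, which was absent from shControl DMSO. At the transport step SLC2A1 had a strong start-site peak and SLC2A2 none. At the phosphofructokinase step PFKM was stronger than PFKL in each list, by the peak also tied to SENP1, and PFKP had none. PFKFB3 and PFKFB4 had strong start-site peaks where PFKFB1 had none, and PKM ranked between 13.5% and 16.1% where PKLR was absent or at 99.5%.

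CpG content was set beside these peaks, since it is a property of the DNA that neither the peak lists nor the choice of genes used. RefSeq gave promoter windows for 27 of the 30 genes, and the 250 bases before each start site were counted, which came to 55 windows. Over all 35116 windows of the genome table, those with a peak in all lists held a median of 22 CpG, those with a peak in some lists 10, and those with a peak in no list 3. Among these genes the medians were 25.5 over 24 windows, 5 over 7 and 7 over 24. Windows that went against this order included those of PFKP, where windows with 28, 25 and 37 CpG had no peak, at SLC16A3, where windows with 20 and 43 had none, and at the outer start site of PFKFB3, with 34 and none. A PFKL window with 30 had a peak in 1 list, and windows of GPI and SLC16A3 with 10 each had one in all lists. FBP1, a liver gene with an open start site, had 26 CpG in its window.

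**Figure D5:**
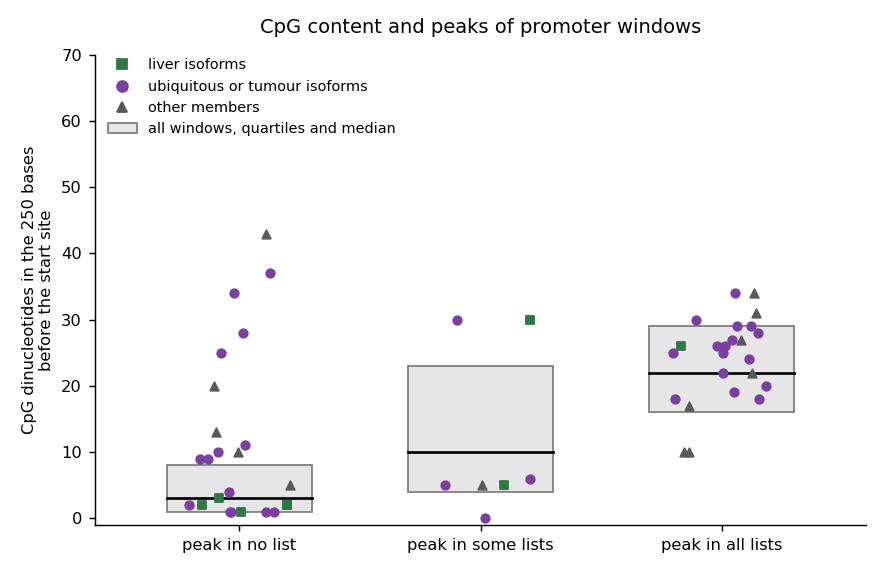
Number of CpG dinucleotides in the 250 bases before each start site, for windows with a peak in no, some or all lists; points are windows of the 30 genes by isoform group, and grey boxes give the quartiles and median over all windows. Windows with a peak in all lists lie around a median of 25.5, and the 5 liver windows without a peak lie at 3 or below.

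Motif letters were searched on both strands of the same windows, and a match is only a match of letters. The hypoxia response core ACGTG was present in 32.7% of the 55 windows and 18.5% of all windows, and the E-box CACGTG, which contains that core, in 12.7% and 6.34%. GGGCGG, the GC box, was present in 56.4% and 42.6%. These 3 motifs each contain a CpG, and the 55 windows held a median of 18 CpG against 11 over all windows. Windows of a gene can also overlap, as at PFKM, so they are not independent. Whether the shares differ from those of windows with like CpG content was not tested. GTTAAT, an HNF1 half-site, was present in 1.82% of the windows, all of it G6PC1, and in 6.23% of all windows. TATAAA was present in 9.09% and 10.7%, and TGTTTAC, a forkhead motif, in 0% and 2.98%. LDHA's outer start site held 5 matches to ACGTG and 2 to CACGTG, and the inner start site of HK2 held 4 and 2. Each CACGTG counts as 2 matches to ACGTG, since it reads the same on both strands. The 4 at HK2 were thus its 2 E-boxes, as were most of the 5 at LDHA.

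Outside the 30 genes, 35 other genes of the pathway were looked at in the same way, and for 33 a start site was known. A start-site peak was present for 25 of 33 in each list, and for 24 in all lists. PGK1, which makes the first ATP of glycolysis, ranked at 16.6%, 31.0%, 23.2% and 39.4%. PGAM2, the muscle mutase, was absent from shARID1A DMSO and weak elsewhere, at 84.2%, 72.8% and 90.6%. HKDC1, a hexokinase-like gene, had a start-site peak only in shARID1A DMSO, at 97.6%. Genes without one in any list included HK3, FBP2, G6PC2, SLC16A4, LDHC and ENO3, the muscle enolase.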

How the data were processed

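Each of the 4 groups was represented by 1 library, and its peaks were listed per library. The submitters' processing notes name BWA, MACS2 2.0 and the build GRCh38 (hg38). The sources used here do not state aligner and caller settings, handling of duplicates and the transposase offset, or read depth. Peak scores are as the authors deposited them, on an unstated scale, and served only to rank peaks within a list. Positions, annotation, distance to the nearest start site and nearest gene are the authors' columns, per the file headers. The genes and lists were chosen with earlier results of these data known.

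Peaks within 1 kb of a start site were promoter peaks, and others distal. Merged regions of the 30 genes were split by position at the gene's start sites, and those of the genome by the authors' distances. A peak was lost or gained when no peak of the other list overlapped it by 1 bp. Start sites were read from RefSeq promoter windows of GRCh38.p14 and the authors' distances. Shares have exact (Clopper-Pearson) 95% intervals, and no p-value was computed. The lost and gained step was tested on a copy of the shControl DMSO list with some peaks removed and the others shifted. Overlaps of that list with the shARID1A rapamycin list were also checked peak by peak for a sample. Alternatives were a promoter of 500 bp or 3 kb, the 30000 top-ranked peaks, 50% overlap, peaks within 50 kb, and leaving out intervals with skipped peak numbers, of which the shControl rapamycin list has 1093 and the shARID1A DMSO list 6666. All 30 genes are accounted for. Named with coordinates were genes whose promoter presence differed, distal regions held by only 2 lists of a hairpin or treatment, the 3 strongest lost and gained peaks of a comparison, the strongest distal region of genes with at least 5 regions, and promoter peaks moving by 10 points or more in both comparisons of a pair. Python 3.11.15, pandas 2.3.3, NumPy 2.4.6, SciPy 1.17.1 and matplotlib 3.10.9 were used.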

Additional observations from a re-analysis of the deposited data

Results flagged for a closer look

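At 3 regions the rank differences pointed in opposite directions in comparisons that share no list, each by at least 10 points. Each value rests on 1 library a group, and the differences between the comparisons were not tested. The GPI start-site region (chromosome 19, 34364754 to 34366143) was stronger with knockdown in DMSO, by a rank difference of -14.9 points, and weaker with knockdown in rapamycin, by 13.6 points. The same 4 ranks gave -10.8 points for rapamycin in shControl cells and 17.7 points in shARID1A cells. The G6PC1 region at 28352 bp past its start site (chromosome 17, 42928789 to 42929514) had rank differences for rapamycin of -20.2 points in shControl and 13.5 points in shARID1A cells. The HK2 region at -17454 bp had 10.4 points in shControl and -16.2 points in shARID1A cells.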

How the results depend on the processing

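Of 104 values under another setting, 84 stayed within 1.5 times of the reported count or within the interval of the reported median, and 20 moved. With only the 30000 top-ranked peaks of each list, knockdown lost 1 of 25 and gained 4 of 27 peaks in DMSO and lost 2 of 28 and gained 3 of 30 in rapamycin, rapamycin lost 1 of 27 in shARID1A cells, and the median promoter rank difference for knockdown in DMSO was -3.46 points over 13 genes. With all peaks within 50 kb of a start site of the genes, whatever their name, far more peaks entered: knockdown lost 20 of 133 (15.0%) and gained 25 of 139 (18.0%) in DMSO, so that gains exceeded losses, against 23.4% and 17.0% of all peaks as near to any start site, and lost 29 of 138 and gained 18 of 127 in rapamycin; rapamycin lost 14 of 133 and gained 20 of 138 in shControl cells, and lost 24 of 139 and gained 13 of 127 in shARID1A cells. Of all such peaks these last 3 comparisons lost 23.4%, 19.5% and 19.7% and gained 16.5%, 16.8% and 16.6%. Of the 7 liver isoforms, a promoter of 500 bp left 0 with a promoter peak in shControl DMSO, 1 in shControl rapamycin and 0 in shARID1A rapamycin, the top-ranked peaks left 1 in each shControl list, and the authors' promoter annotation left 1 in shControl DMSO and 1 in shARID1A rapamycin. The interval of a median rank difference is wide, and within it the value for knockdown in DMSO changed sign, from -1.13 to 1.19 points at 3 kb and 4.29 at 500 bp, and that for rapamycin in shARID1A cells fell from 1.34 to 0.79 at 3 kb. With 50% overlap, or without intervals with skipped peak numbers, no count moved by over 1.5 times. The authors' promoter annotation, and position for the isoform groups, were chosen after seeing the data. No paired analysis was possible because each group held 1 library. Read depth is unknown, so a missing peak may be one below the calling threshold.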
